A study of Mus musculus with 6 samples.

Results

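The 4 genes Eno2, Mbp, Slc1a3 and Vim were taken as markers of neurons, oligodendrocytes, astrocytes and cells of mesenchymal origin on an oligonucleotide array for neurotransmission genes. They were chosen by gene name, each was represented by 2 oligonucleotides (oligos) printed as 2 spots per array, and they made up 4 of 287 sequence entries and 8 of the 590 gene probes. Total RNA of adult B10D2 mice had been pooled within each tissue, from 6 cortices and from 5 thymi, and all animals were of this strain with no treatment given in the labels. Every array, 3 per tissue, received 15 µg of pool RNA, carrying the dye Cy5 after reverse transcription from random primers. The arrays of a tissue are thus repeated hybridizations of a single pool, and every p-value below measures the spread between hybridizations and not between mice. The series addresses hybridization kinetics on the chip, and its labels state no question for the comparison of the tissues.

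Eno2 encodes the gamma form of enolase, a glycolytic enzyme that neurons use and that serves as a general neuronal marker. Mbp encodes myelin basic protein, a structural protein of the myelin sheath made by oligodendrocytes; an upstream start in the same locus gives the Golli transcripts, which are known from thymocytes as well as from neurons and oligodendrocytes. Slc1a3 encodes GLAST, a glutamate transporter of astrocytes that clears glutamate from the extracellular space. Vim encodes vimentin, the intermediate filament protein of mesenchymal cells, of vessel walls and of lymphocytes and their stroma, which in the adult brain is largely limited to vessels, ependyma and some glia.

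Oligo sequences were not used here, so which transcripts of a gene an oligo binds was not tested. As the sequence context of the genes, the 250 bases before the transcript start of Eno2 (higher in cortex on both oligos), Slc1a3 (higher in cortex on 1 of 2) and Vim (higher in thymus on both under quantile scaling) are shown from RefSeq, GRCm38.p6, read 5′ to 3′ on the gene's strand. Capitals mark matches on either strand, none overlapping, to 3 motifs: the TATA box (letters TATAAA), the GC box (letters GGGCGG) and the CCAAT box (its own letters).
Eno2 (chr6:124769674-124769923, minus strand): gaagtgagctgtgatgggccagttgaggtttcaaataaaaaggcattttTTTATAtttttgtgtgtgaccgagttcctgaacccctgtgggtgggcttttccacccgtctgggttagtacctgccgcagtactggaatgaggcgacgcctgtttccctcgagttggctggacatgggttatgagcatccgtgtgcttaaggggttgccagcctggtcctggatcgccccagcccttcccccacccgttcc
Slc1a3 (chr15:8710808-8711057, minus strand): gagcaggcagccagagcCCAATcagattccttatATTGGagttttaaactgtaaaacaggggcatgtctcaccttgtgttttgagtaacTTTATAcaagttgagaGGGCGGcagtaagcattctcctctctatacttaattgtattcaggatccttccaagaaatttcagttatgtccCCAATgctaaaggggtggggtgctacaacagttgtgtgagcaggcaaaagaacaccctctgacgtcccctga
Vim (chr2:13574061-13574310, plus strand): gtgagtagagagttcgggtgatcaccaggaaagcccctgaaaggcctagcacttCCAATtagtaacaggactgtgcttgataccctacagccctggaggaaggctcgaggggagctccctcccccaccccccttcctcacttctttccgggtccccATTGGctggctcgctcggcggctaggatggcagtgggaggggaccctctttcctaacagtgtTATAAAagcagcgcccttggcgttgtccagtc
Each window held 1 match to the TATA box, which 12.4% of 32851 such windows hold on either strand. For Vim the match read TATAAA and lay near the transcript start. For Eno2 and Slc1a3 it was the reverse complement, TTTATA, and lay further upstream. The CCAAT box, held by 33.8% of windows, was found 3 times for Slc1a3 and 2 times for Vim. The GC box, held by 32.7%, was found 1 time, for Slc1a3. The window of Eno2 held neither of the latter. The array measured transcripts, and these letters were not linked to the tissue differences by any test.

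Arrays differed in brightness, and the difference followed the tissue in part. Each array held 1192 gene spots, and their median net signal, the spot median minus the local background median, was 830 to 2542 scanner units on the cortex arrays and 480 to 956 on the thymus arrays. Between 0 and 16 gene spots per array lay at the scanner's ceiling of 65535. A number code in the image names of the file headers took 3 values, which are called scan settings here. What the code stands for was not tested. Cortex 1, cortex 2 and thymus 1 shared the first. Cortex 3 and thymus 2 shared the second, with median spots of only 37 and 32 pixels, and thymus 3 was alone in the third. Spots counted as above background when they read more than 2 background SDs over the median of the surrounding background, which 4 to 8 of 120 to 126 unflagged blank spots did on each array. No probe was matched by accession or printed name to the thymocyte or thymic epithelial markers listed, so the thymus label could not be checked against them.

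The tissue difference was taken as cortex minus thymus on the log2 scale after normexp background correction and quantile scaling, and tested in limma over all probes that were above background on at least 3 of the 6 arrays. All 8 marker oligos met that filter. Of them 7 had an adjusted p under 0.05, against 48.0% of the 465 probes tested. Eno2 was higher in cortex on both oligos, and Mbp and Slc1a3 on 1 each, giving 4 oligos where 24.3% of all probes were called in that direction. Vim was higher in thymus on both oligos and Mbp on its second, giving 3 where 23.7% of all probes were. These 3 calls were lost under centring on control genes and also without scaling, where 6.02% and 0% of all probes were called higher in thymus (limma). For these 7 oligos cortex and thymus arrays were fully separated, as for 55.7% of all probes tested. The median difference of the 8 oligos was 1.26 log2 units, beside -0.10 over all probes tested. Tissue RNA cannot tell fewer cells of a type from less RNA per cell.

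**Figure D1:**
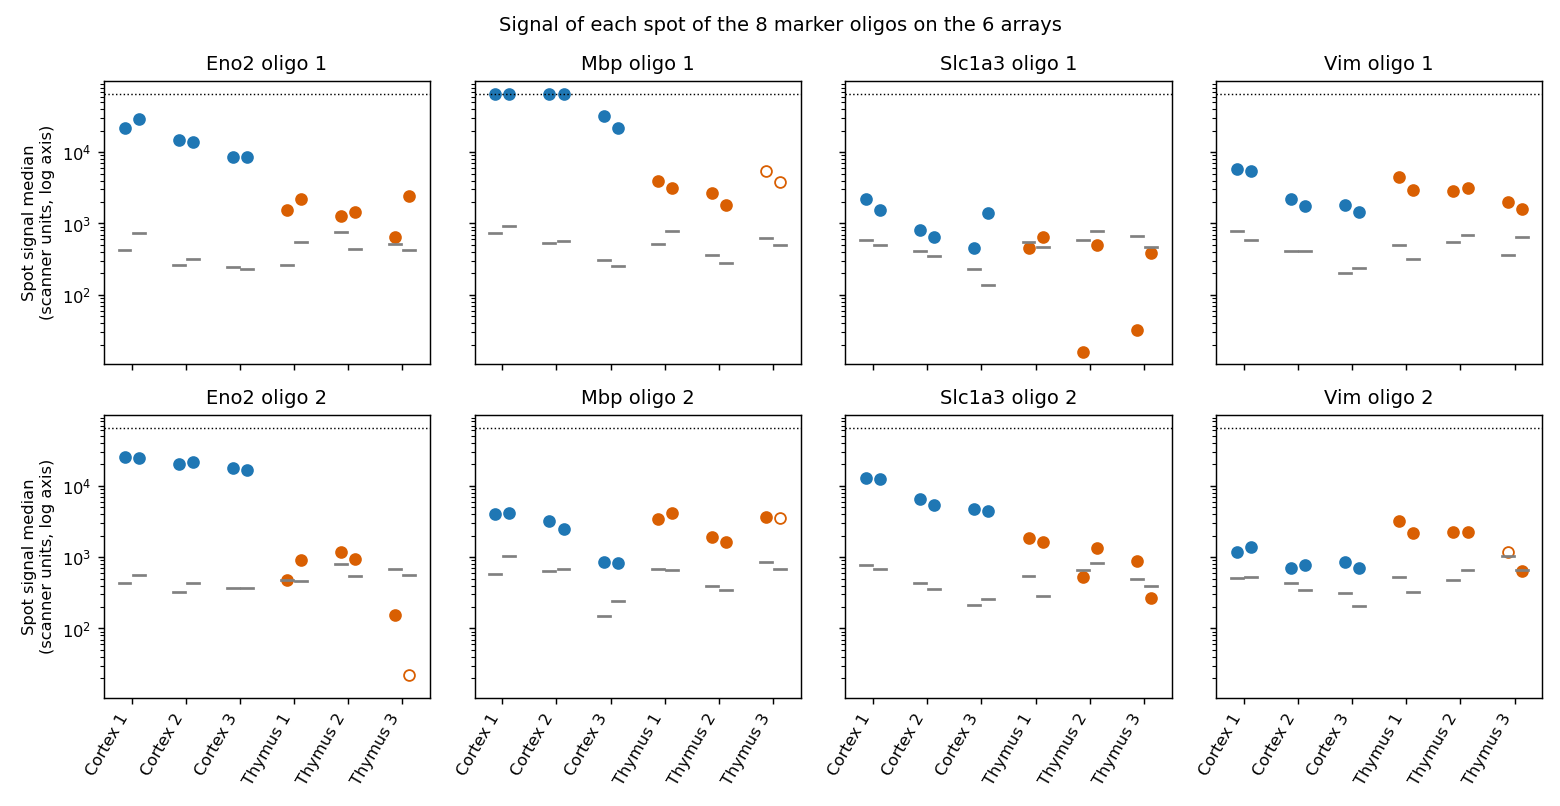
Signal median of every spot (scanner units, log axis) of the 8 oligos on the 3 cortex arrays (blue) and 3 thymus arrays (orange), with grey bars at the local background median plus 2 SD, open circles for flagged spots and a dotted line at the ceiling of 65535. Mbp oligo 1 reaches the ceiling on cortex 1 and 2, while spots of Mbp oligo 2, both Vim oligos and Slc1a3 oligo 1 overlap between the tissues. The values are as deposited and not scaled between arrays.

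Eno2, the neuronal enolase, gave strong signal in cortex and weak signal in thymus on both oligos. Oligo 1 had net signals of 25287, 14335 and 8466.5 on cortex 1, 2 and 3 (means of 2 spots), and 1774.5, 1223.5 and 1464 on thymus 1, 2 and 3. All 6 thymus spots of this oligo were above background, and the tissues did not overlap. After scaling, cortex averaged 13.41 ± 0.34 and thymus 11.19 ± 0.21 log2 units (SD, n = 3 each). The difference was 2.22 ± 0.35 (SE; adjusted p = 9.36e-05, limma), or 4.65-fold.

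Oligo 2 of Eno2 had net signals of 25110, 20823.8 and 17025 on the cortex arrays. On thymus 1 and 2 these were 581.25 and 889.5, and on thymus 3 the single unflagged spot lay at -2, below its local background. Thymus thus gave signal above background on 2 of 3 arrays, and again the tissues did not overlap. The scaled means were 13.96 ± 0.90 and 9.61 ± 1.44 (SD, n = 3 each), a difference of 4.34 ± 0.57 (adjusted p = 1.42e-05, limma). With the background subtracted and values floored at 1 this difference was 6.66, and without thymus 3 it was 3.60, both past the threshold.

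The 2 oligos of Mbp, the myelin protein gene, differed between the tissues in opposite directions under quantile scaling. Oligo 1 was at the ceiling of the scanner on both spots of cortex 1 and of cortex 2. On cortex 3, where no spot of it was saturated, its spots read 32320 and 21885 above background. On thymus 1 and 2 its net signals were 3331.75 and 2184.75, and both spots of thymus 3 were flagged, at 5301.5 and 3771, and left out. No thymus spot thus came within the range of cortex. The scaled means were 15.58 ± 0.36 in cortex (SD, n = 3) and 11.92 in thymus (n = 2, thymus 3 dropped from the fit), a difference of 3.66 ± 0.41 (adjusted p = 4.58e-06, limma). Since 2 of 3 cortex arrays read the ceiling, the cortex level there is a lower limit, and the ceiling also limits the difference. With the flagged spots kept the difference was 3.34.

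Oligo 2 of Mbp had net signals before scaling that varied widely between arrays and overlapped between the tissues. It had 3801.5, 2641.75 and 828.75 on cortex 1, 2 and 3, and 3531.25, 1723 and 3443 on thymus 1, 2 and 3, so the unscaled arrays overlapped. All 12 of its spots were above background and none was saturated. After quantile scaling the thymus arrays lay above the cortex arrays, at 12.06 ± 0.37 and 10.61 ± 0.26 (SD, n = 3 each), a difference of -1.44 ± 0.36 (adjusted p = 0.00347, limma). This call was lost with arrays centred on the control genes, at -0.83 (adjusted p = 0.175), and without scaling, at -0.44 (adjusted p = 0.727); the adjusted p over all alternatives ran from 0.00106 to 0.727.

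A brightness factor of an array cancels in the ratio of the 2 Mbp oligos within it, as long as neither is saturated. On cortex 1 and 2, where oligo 1 was at the ceiling, the ratio is a lower limit. It compares changes, since the levels of different oligos cannot be set against each other. Oligo 1 over oligo 2 was at least 15.9 and 22.8 on cortex 1 and 2 and was 28.8 on the unsaturated cortex 3, against 0.943 and 1.22 on thymus 1 and 2. As measured, the log2 ratio differed between the tissues by 4.35 ± 0.54, or 20.4-fold (SE, n = 3 cortex and 2 thymus arrays). The adjusted p was 1.27e-06 (limma over 185 sequence entries with both oligos tested). The ceiling pulls this estimate down, but with its SE it is not a strict lower limit. Entries whose oligos changed unequally were common, with 26.5% of the 185 called, and the median size of the change was 0.70 log2 units. Leaving out each array in turn, where 2 thymus arrays remained, moved the difference of the Mbp ratio between 4.15 and 4.58.

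**Figure D2:**
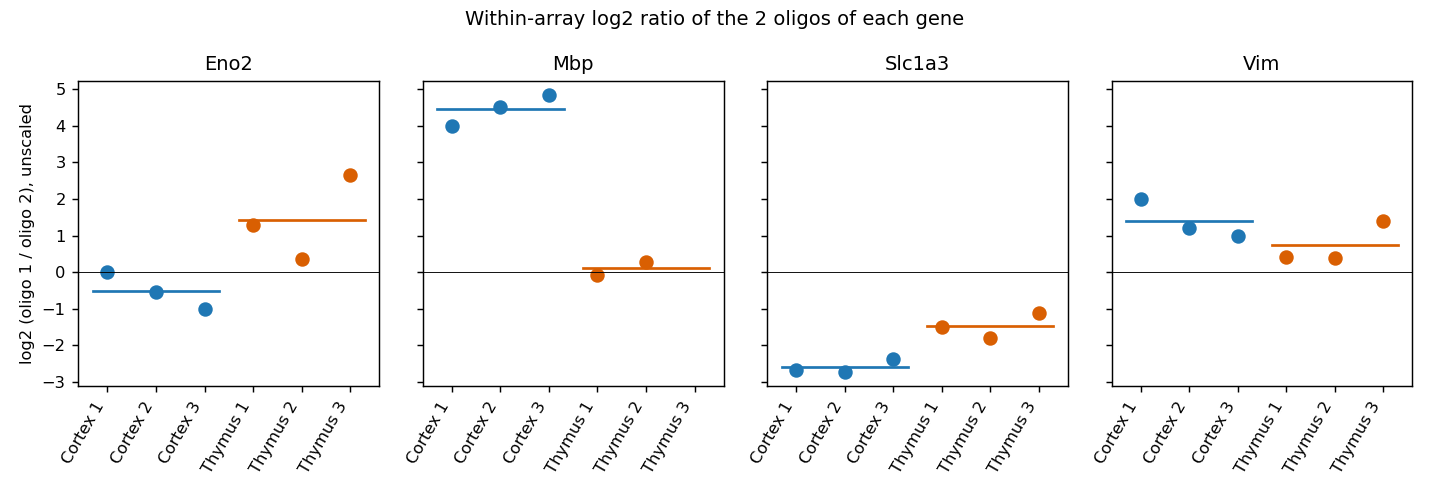
Within-array log2 ratio of oligo 1 to oligo 2 for Eno2, Mbp, Slc1a3 and Vim on each array, from background-corrected values without scaling between arrays, with lines at the tissue means (cortex blue, thymus orange). For Mbp the cortex arrays lie between 4.0 and 4.85, with cortex 1 and 2 as lower limits because oligo 1 was saturated there, and the 2 thymus arrays with a value at -0.09 and 0.28. The thymus ratios of Slc1a3, and those of Eno2 and Vim on thymus 3, include an oligo not above background.

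The other 3 genes had smaller differences between their oligos. For Eno2 the log2 ratio of oligo 1 to oligo 2 was -0.51 in cortex and 1.43 in thymus, differing by -1.95 ± 0.54 (adjusted p = 0.00778, limma). That call was lost without cortex 3 (-1.70, adjusted p = 0.109) and without thymus 3 (-1.34, adjusted p = 0.0505), where oligo 2 lay at background; over the alternatives the adjusted p was 0.00992 to 0.109. For Slc1a3 the difference was -1.12 ± 0.47 (adjusted p = 0.0818) and for Vim 0.66 ± 0.49 (adjusted p = 0.352), neither past the threshold. In thymus, oligo 1 of Slc1a3 was above background on no array and its oligo 2 on thymus 1 only. Vim oligo 2 was not above background on thymus 3. The sizes of these ratios in thymus thus rest in part on background. Of the 57 entries with both oligos called under quantile scaling, Mbp was among 7 whose oligos were called in opposite directions. With arrays centred on the control genes 38 entries had both oligos called and 0 of them in opposite directions, and without scaling 31 and 0.

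**Figure D3:**
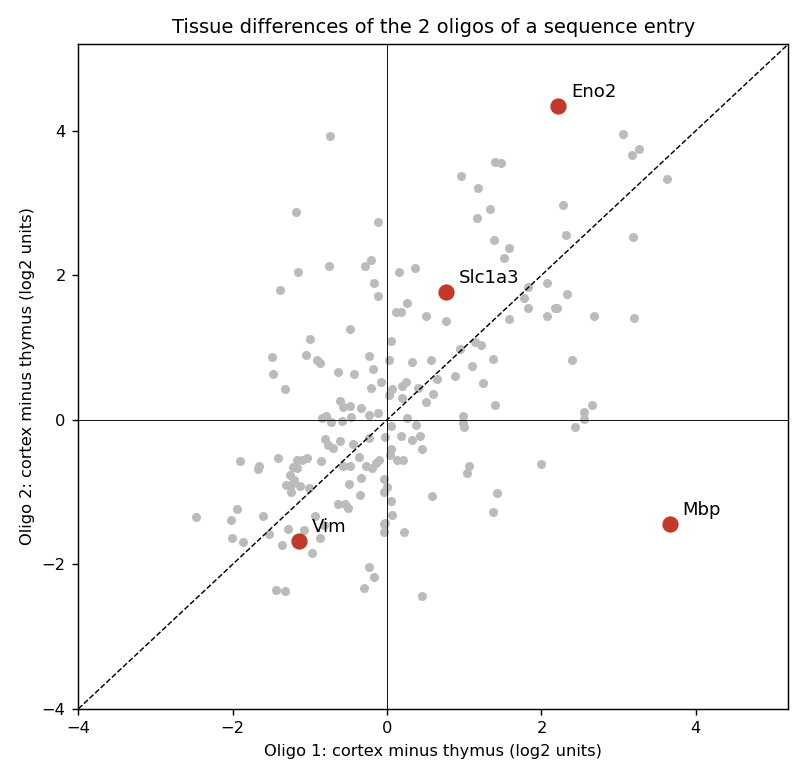
Cortex minus thymus (log2 units, quantile scaling) of oligo 1 against oligo 2 for the 185 sequence entries with both oligos tested (grey), with the 4 marker genes in red and equality as a dashed line. Eno2 and Slc1a3 lie up and right of zero, Vim lies down and left, and Mbp lies at 3.66 on oligo 1 and -1.44 on oligo 2; the direction of the second value for Mbp and of Vim passes the test only under quantile or median scaling.

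Slc1a3, the astrocyte glutamate transporter, was higher in cortex on oligo 2 and did not pass on oligo 1. Oligo 2 had net signals of 12451.2, 5898.25 and 4584.25 on cortex 1, 2 and 3, and 1653.25, 712 and 535.25 on thymus 1, 2 and 3. The tissues did not overlap. In thymus 4 of 6 spots were above background, and the oligo as a whole was so on 1 of 3 arrays, thymus 1. The scaled means were 12.30 ± 0.57 and 10.53 ± 0.41 (SD, n = 3 each), a difference of 1.76 ± 0.39 (adjusted p = 0.00128, limma). Without scaling it was 2.75. Both values rest in part on thymus signals not above background.

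Oligo 1 of Slc1a3 was dim. It read 1713.5, 663.75 and 923.5 on the cortex arrays and 411.75, 63.5 and 138.5 on the thymus arrays. All 6 cortex spots and 1 of 6 thymus spots were above background, so the oligo entered the test through its cortex arrays. In thymus 5 of its 6 spots were segmented at 9 to 14 pixels, where the median gene spot covered 32 to 120 pixels on these arrays. The scaled means were 9.71 ± 0.58 and 8.95 ± 0.37, and the arrays overlapped, with a difference of 0.76 ± 0.39 (adjusted p = 0.117, limma). No fold is given, because the cortex mean was not above the lowest signal that was above background in thymus. The oligo passed with arrays centred on the control genes (1.24, adjusted p = 0.0283) and with spot means in place of medians (1.04, adjusted p = 0.0414), and the adjusted p over its alternatives ran from 0.0283 to 0.243.

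Vim, the mesenchymal filament gene, was higher in thymus on both oligos under quantile scaling. Oligo 1 read 5456.25, 1890 and 1620.25 on cortex 1, 2 and 3, and 3596.5, 2845 and 1733.5 on thymus 1, 2 and 3, with all 12 spots above background. Before scaling these ranges overlapped, with cortex 1 the brightest array. After scaling they did not, at 10.88 ± 0.51 in cortex and 12.03 ± 0.33 in thymus (SD, n = 3 each), a difference of -1.14 ± 0.38 (adjusted p = 0.0184, limma). Oligo 2 read 1142.75, 677.75 and 767 on the cortex arrays. It read 2611.25 and 2134.75 on thymus 1 and 2 and 517 on thymus 3, where 1 spot was flagged and the other was not above background. Its scaled difference was -1.68 ± 0.45 (adjusted p = 0.00539, limma), with thymus 3 at 10.20 just above cortex 3 at 10.17.

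The thymus-higher calls of Vim depended on the scaling and on single arrays. With arrays centred on the control genes the oligos stood at -0.43 and -1.09 (adjusted p = 0.494 and 0.0602), and without scaling at -0.04 and -0.70 (adjusted p = 0.970 and 0.540). Without cortex 2, oligo 1 was at -0.85 (adjusted p = 0.119) and oligo 2 at -1.48 (adjusted p = 0.0619). Without thymus 2, oligo 1 was at -0.96 (adjusted p = 0.0502). Over the alternatives the adjusted p was 0.00803 to 0.970 for oligo 1 and 9.82e-05 to 0.540 for oligo 2.

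**Figure D4:**
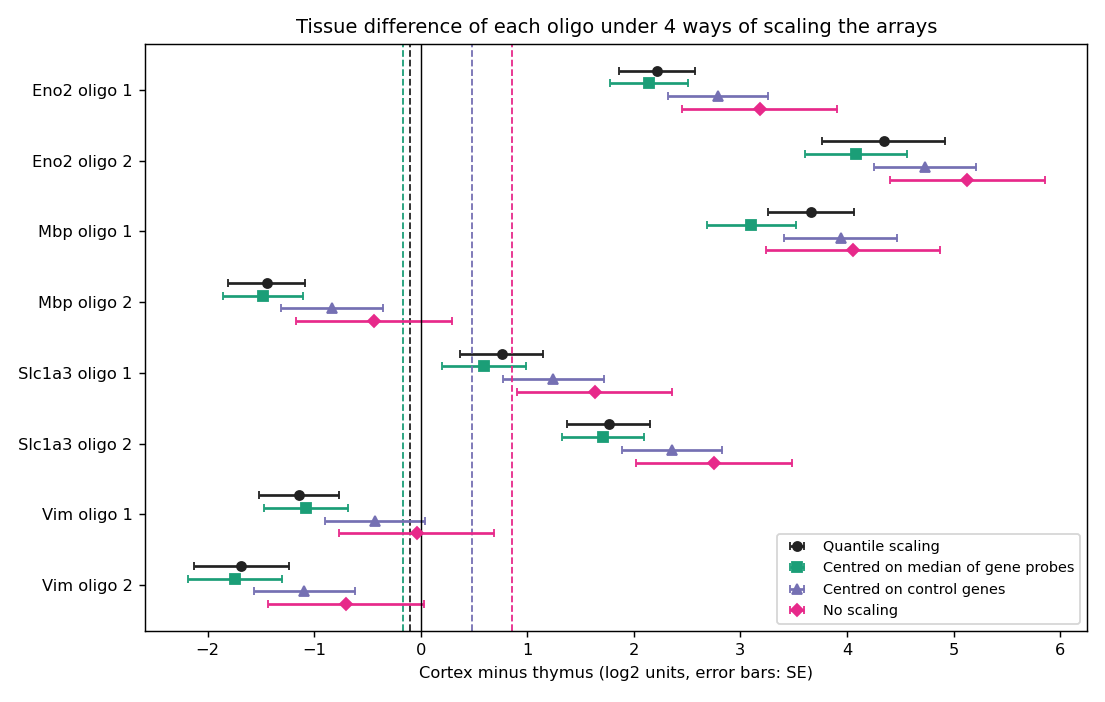
Cortex minus thymus (log2 units, bars are SE) of each oligo under quantile scaling, centring on the median of all gene probes, centring on the control genes and no scaling; dashed lines in the same colours mark the median of all tested probes, and the black line is 0. Eno2, Mbp oligo 1 and Slc1a3 lie right of 0 and of the median line under each scaling, and Mbp oligo 2 and Vim lie left of both, though these were not called with control genes or without scaling.

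The choice of scaling moved the median of all probes and the values of the marker oligos with it. The median difference over the 465 tested probes was -0.10 under quantile scaling, -0.17 with arrays centred on the median probe, 0.48 centred on the control genes and 0.86 without scaling. Limma called 113 probes higher in cortex and 110 in thymus under quantile scaling. With control genes these were 141 (30.3%) and 28 (6.02%), with 5 and 0 marker oligos among them. At an unadjusted p under 0.05 (limma) 38 of the 465 probes were then higher in thymus, with 1 marker oligo, Vim oligo 2, among them. Without scaling 117 probes (25.2%) were called higher in cortex and 0 in thymus, with 4 and 0 marker oligos. At an unadjusted p under 0.05 there were then 6 thymus-higher probes and no marker oligo. Centring on the median or the control genes and no scaling differ by 1 constant per array, so for an oligo with values on all arrays the distance from that median is nearly fixed by construction. Relative to the median, Vim oligo 1 lay at -1.04, -0.91, -0.91 and -0.90 in the order given, and Mbp oligo 2 at -1.35, -1.31, -1.31 and -1.30. Vim oligo 2 lay at -1.58, -1.57, -1.57 and -1.56. Eno2 oligo 1 lay at 2.32, 2.31, 2.31 and 2.32, and Slc1a3 oligo 2 at 1.86, 1.88, 1.88 and 1.89. Mbp oligo 1, without a value on thymus 3, lay at 3.76, 3.27, 3.46 and 3.19. No sign of the 8 oligos turned under any of these scalings. Whether the typical probe or the control genes had equal amounts of RNA in the tissues was not tested.

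Ratios to Vim within an array, which need no scaling, were higher on each cortex array than on each thymus array for both oligos of Eno2 and for oligo 2 of Slc1a3. Vim oligo 2 on thymus 3 was itself not above background. Taken to the mean of the Vim oligos, Eno2 oligo 1 was at 2.82 to 3.37 log2 units on the cortex arrays and at -0.89 to 0.26 on the thymus arrays, a difference of 3.55. Eno2 oligo 2 was at 3.14 to 3.90 and -2.39 to -1.26, a difference of 5.50. The -2.39 was on thymus 3, where this oligo was not above background. Mbp oligo 1 differed by 4.87, with values on 2 thymus arrays and a cortex level limited by the ceiling. Slc1a3 oligo 2 differed by 3.12, with 1 of 3 thymus arrays above background. Slc1a3 oligo 1 was above background on no thymus array, so the size of its difference is not given. The ratio of Mbp oligo 2 was 0.38 ± 0.72 in cortex and 0.45 ± 1.06 in thymus (SD, n = 3 each; exact permutation p = 1, two-sided). These arrays overlapped, from -0.39 to 1.03 in cortex and from -0.46 to 1.62 in thymus, and a test of this size does not show that the oligo and Vim changed alike. For both Eno2 oligos and Slc1a3 oligo 2 the two-sided exact permutation test gave p = 0.1, the smallest that 3 arrays against 3 can give, and for Mbp oligo 1 p = 0.2. Adjusted over the 6 ratios these were 0.15 and 0.24, so none could pass in this design. Such a ratio shows unequal change and not that either gene was constant.

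**Figure D5:**
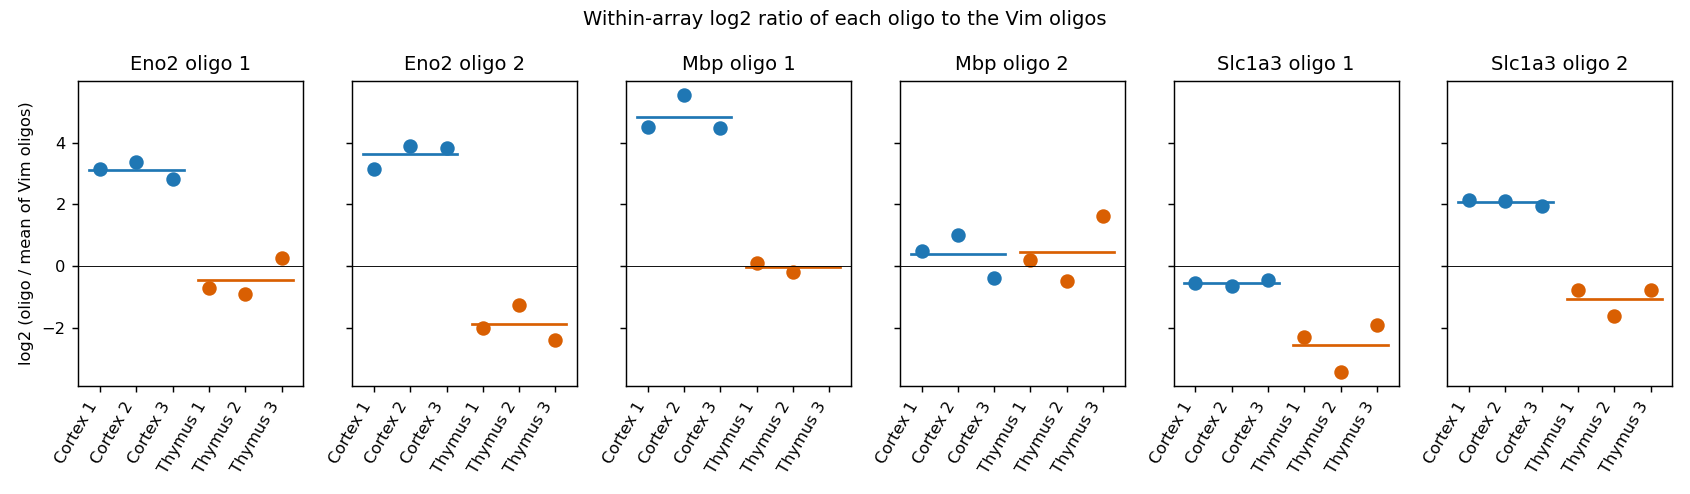
Within-array log2 ratio of each Eno2, Mbp and Slc1a3 oligo to the mean of the Vim oligos on each array, from background-corrected values without scaling, with lines at the tissue means (cortex blue, thymus orange). Cortex lies above thymus on each array with a value for 5 oligos, of which Slc1a3 oligo 1 was not above background in thymus and Mbp oligo 1 was saturated on cortex 1 and 2, and the tissues overlap for Mbp oligo 2, at 0.38 and 0.45 on average. Eno2 oligo 2 was not above background on thymus 3, and Slc1a3 oligo 2 was above it on thymus 1 only.

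Under quantile scaling the directions were also present within the scan settings that held both tissues. In setting 1, cortex 1 and 2 minus thymus 1 gave 2.27 and 3.75 for the Eno2 oligos, 3.90 and -1.16 for the Mbp oligos, 0.08 and 1.16 for the Slc1a3 oligos and -1.19 and -2.23 for the Vim oligos. In setting 2, cortex 3 minus thymus 2 gave 2.38 and 3.98, 3.29 and -1.46, 1.63 and 2.19, and -1.22 and -1.86 in the same order. Without scaling the signs were the same, but Mbp oligo 2 stood at -0.14 in setting 1 and -1.08 in setting 2. Vim oligo 1 then stood at -0.12 and -0.85, and Vim oligo 2 at -1.30 and -1.46. These are the arrays on which the calls were made, and each setting has 1 thymus array, so they carry no test of their own. For Slc1a3 oligo 1 the settings differed most after quantile scaling, at 0.08 and 1.63, and it was not above background on either thymus array. A block for scan setting left 7 marker oligos and 219 probes called.

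Few other markers of these cell types were matched to probes by accession or printed name. The lists of enolases, glutamate transporters, intermediate filaments, myelin genes, and oligodendrocyte, astrocyte and mesenchymal markers were each represented only by the gene already described. The neuron list had 3 of 15 genes matched, with Gad2 and Stmn2 besides Eno2. Of its 8 probes limma called 6 as higher in cortex and 0 as higher in thymus, where 24.3% and 23.7% of all probes were, with a median of 1.61. At an unadjusted p under 0.05 (limma) the latter count was also 0, beside 124 of all 465 probes tested. The 8 include both Eno2 oligos already described. Some of the 6 were above background only in cortex, as given below, so their direction was in part set by the filter. Stmn2, a microtubule regulator of neurites, was higher in cortex on oligo 2 by 1.71 ± 0.35 (adjusted p = 0.000681, limma) and did not pass on oligo 1, at -0.12 ± 0.37. Of the 4 probes of Gad2, an enzyme of GABA synthesis, 3 were higher in cortex and the other stood at 0.12. Of the 3, the second oligos printed gad65 and GAD67 were above background on no thymus array and entered the test through their cortex arrays. Against the lowest signal that was above background in thymus, or their own where higher, their mean cortex signals were 5.55-fold and 1.62-fold higher. These bounds hold under quantile scaling and leave out the SE, so they are not strict lower limits. The first gad65 oligo, above background on 1 thymus array, differed by 1.18. The pair printed as GAD67, usually the product of Gad1, carries an accession of Gad2, so its gene is uncertain; it gave the 0.12 and 1 of the 3 calls. For the B cell and myeloid list, Pax5, a regulator of B cells, was the gene matched, with 1 of 2 probes higher in thymus, at -2.33 ± 0.35 under quantile scaling (adjusted p = 5.17e-05, limma). This oligo 2 was above background on 1 cortex array and 3 thymus arrays. Oligo 1 of Pax5 stood at -0.30 (adjusted p = 0.543, limma) and was above background on 3 cortex arrays and 1 thymus array. Without scaling limma called no probe higher in thymus, Pax5 included. That list's part in the thymus values was not tested.

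The probes of other genes whose profiles over the 6 arrays were most like those of the marker oligos were found by the root mean square difference between centred log2 values, as a description among 438 or 439 probes. Eno2 oligo 1 was closest to an oligo of Pcp4, a calmodulin-binding protein of neurons, at 0.24. Next was an oligo printed as glur5p, named by its accession as Grik5, a kainate receptor subunit, at 0.27. Eno2 oligo 2 was closest to both oligos printed as gluR2, at 0.63 and 0.80. Mbp oligo 2 was closest to a potassium channel probe with no printed name, at 0.15, and to an oligo of Adrb3, a β-adrenergic receptor, at 0.17. Slc1a3 oligo 1 was closest to probes printed as cach3b and kir1,1b,rat, at 0.21 and 0.29. Among the nearest to oligo 2 of Slc1a3 was the potassium channel probe printed as kv3,2a, at 0.27. Vim oligo 1 was closest to an oligo of Pomc, at 0.14, and to a control probe printed as Ppox.1, at 0.24. Vim oligo 2 was closest to control probes printed as lamr1.1, at 0.24 and 0.34. Mbp oligo 1, without a value on thymus 3, was not compared. With 2 tissues such likeness is largely set by the tissue difference itself.

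Duplicate spots gave the error within an array. Among unflagged, unsaturated spot pairs above background, the median gap between the spots of a probe was 0.30 to 0.48 log2 units over the 6 arrays. For the marker oligos the median gap per array was 0.09 to 0.44 except on thymus 3, where 2 oligos had such a pair and the median gap was 1.22. The widest pair, Eno2 oligo 1 on thymus 3, read 573 and 2355 above background. Next was Slc1a3 oligo 1 on cortex 3, at 432 and 1415, where the brighter spot covered 17 pixels. This spread leaves out that between hybridizations.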

How the data were processed

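Single-colour scanner files of 6 arrays were used. The authors deposited spot intensities on a linear 16-bit scale, not normalized, with a flag and a spot area in pixels (other deposited columns); per the file headers, spots were segmented automatically. No source used here names the quantification program. The authors' value table, in scaled intensity units, covers 20 probes and 0 of the marker oligos, so it was not used.

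Spot medians were corrected with normexp (offset 50, fitted on all spots) in limma 3.58.1 and R 4.3.3. Flagged spots were left out, the spots of a probe averaged on the log2 scale and arrays quantile-scaled. Probes above background on most spots of at least 3 of 6 arrays, with 2 or more values in each tissue, entered lmFit and eBayes (two-sided, Benjamini-Hochberg adjustment, threshold 0.05). Precision is limited by having 6 arrays. Only the lmFit and eBayes step was tested on simulated data, drawn as already scaled values with none missing. Background correction, quantile scaling, the filter on dim probes and saturation were not simulated. The ratio of oligos within an array was fitted by lmFit and eBayes on unscaled values, as added after seeing the data, as were the ratios to Vim (exact permutation tests, scipy 1.17.1).

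Names came from the GRCm38.p6 RefSeq table, by accession for 206 probes, Eno2 and Mbp among them, and by the printed name for 6, among them Slc1a3 (printed glast-1) and Vim (Vimentine). The others keep printed names. Python 3.11.15, numpy 2.4.6, pandas 2.3.3 and matplotlib 3.10.9 were used. Genes named were the marker oligos, their 2 nearest profiles, of which 1 is not reported here, and the listed markers. The genes, lists and tests were chosen with earlier results of these data known. Alternatives covered background correction, scaling, filter, spot summary, flags, blocks, limma settings and each array left out.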

Additional observations from a re-analysis of the deposited data

How the results depend on the processing

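None of the 8 oligo differences changed sign under any alternative run, and 206 of 231 alternative values kept their side of the threshold or stayed within 1.5 times a count. Eno2, Mbp oligo 1 and Slc1a3 oligo 2 passed under each alternative that could test them; Mbp oligo 1 had no fit without thymus 1 or 2 or without the 2 arrays of scan setting 2. With arrays centred on the control genes Mbp oligo 2 (-0.83) and Vim oligos 1 and 2 (-0.43 and -1.09) lost their calls and Slc1a3 oligo 1 gained it (1.24). Without scaling Mbp oligo 2 (-0.44) and Vim (-0.039 and -0.70) lost theirs, leaving 4 marker oligos and 117 probes called. With spot means Slc1a3 oligo 1 passed (1.04), and with subtracted background Vim oligo 1 did not (-1.28). Over probes above background on all 6 arrays 3 marker oligos were tested, all called, of 81 calls among 186 probes. Without the 2 arrays of scan setting 2, as chosen after seeing the data, 108 probes were called and Vim oligo 1 was not (-1.10). Leaving out each array in turn left 108 to 220 calls and 5 to 7 marker oligos, with Vim oligo 1 at -1.29 to -0.85 and Vim oligo 2 at -2.20 to -1.28. The unequal change of the Eno2 oligos was then -2.48 to -1.34, and 25 to 46 entries were called. The filter stayed at 3 arrays in these fits, so fewer probes were tested. Deviations of same-numbered arrays from their tissue means correlated at 0.16, -0.09 and 0.03, and those of differently numbered arrays at -0.26 to 0.19. Deviations from a mean of 3 arrays are not independent, so these values do not test a pairing by replicate number. With the replicate block 210 probes and 7 marker oligos were called. Other causes were not tested. Dim thymus signal limits both Slc1a3 oligos and Eno2 oligo 2, and the scanner's ceiling limits Mbp oligo 1.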
